A study of Mus musculus with 8 samples.

Results

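Of the 136069 cytosine positions with a deposited methylation level in 4T1 tumors and lung metastases, 1010 (0.742%) were partly methylated in the MFP lung metastases and lower in the TVI lung metastases. They were chosen from the levels themselves. A position, called a site here, was taken when its mean over the 3 MFP metastases was below 80% and the highest of the 3 TVI metastases was at least 20 percentage points below the lowest of the 3 MFP metastases. The difference between TVI and MFP metastases at these sites is therefore the rule and not a finding, and it is given below as a description with no test. What the rule did not use are the primary tumors, the positions, the neighboring sites and the genes nearby.

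The study compared primary tumors with lung metastases of 4T1, a single mammary carcinoma cell line that grows in BALB/c mice and spreads to the lung. All 8 samples were 4T1 tumor cells of BALB/c origin per the labels, with no mutation, transgene or drug named for any group. The groups were primary mammary tumors (MFP, n = 2), and lung metastases with the mark MFP (n = 3) or the mark TVI (n = 3); both abbreviations stand as in the labels. The labels give neither the age of the animals, nor whether each sample of a group had its own animal, nor whether host cells were removed, and the spread between samples may be technical. None of the marker genes on the lists for mammary epithelium (9 genes), lung epithelium and endothelium (9), leukocytes (7) or fibroblasts (5) could be placed on these sites, so the labelled cell type could not be checked.

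In mammals methylation is added mainly to cytosines followed by guanine, called CpGs. Most CpGs of the genome are methylated, while dense groups of CpGs at the start of many genes, called CpG islands, are usually free of it, and their edges, called shores, are where levels differ most between tissues and tumors. Methylation over a start site generally accompanies low transcription of the gene, but transcription was not measured here. Bisulfite turns unmethylated cytosine into uracil, so that sequencing reports the share of reads methylated at each site. A level between the extremes means that only part of the DNA molecules in the sample carried methylation at that site.

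Some of these sites could be placed on promoters, and those sequences are shown because they hold several chosen sites within 250 bases before a gene's start. The deposited positions did not follow the named build: on chromosome 7, 557 of its 3166 sites had positions higher than any gene in the GRCm38.p6 gene table. Promoters were therefore found by their CpG spacing. In each RefSeq window of 300 bp around a start, the distances between CpGs were compared with the distances between deposited sites, and 272 windows of 247 genes, out of 32619, matched at exactly 1 place within 8 Mb, against 0 in a zone of equal width further away. All positions below are as deposited and all distances from a start are along the gene in deposited coordinates. In 6 of the matched windows, which belong to 5 genes, there were 21 of the chosen sites. Cyba, which encodes the p22phox subunit of the NADPH oxidase, had 8 of them at its 9 CpGs. Gm15998, a predicted gene, and Tcam1, a testicular cell adhesion gene, had 5 each at 21 CpGs. The 250 bases before each start follow, from RefSeq on GRCm38.p6 and in the direction of the gene, with the CpGs of the chosen sites in capitals.
Cyba (chr8:122432941-122433190, minus strand): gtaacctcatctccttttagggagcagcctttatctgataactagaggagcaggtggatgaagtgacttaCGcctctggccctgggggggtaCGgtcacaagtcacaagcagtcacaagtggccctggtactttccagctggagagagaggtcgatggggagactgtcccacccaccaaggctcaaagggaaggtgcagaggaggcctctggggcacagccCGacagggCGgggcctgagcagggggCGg
Gm15998 (chr3:89316496-89316745, plus strand): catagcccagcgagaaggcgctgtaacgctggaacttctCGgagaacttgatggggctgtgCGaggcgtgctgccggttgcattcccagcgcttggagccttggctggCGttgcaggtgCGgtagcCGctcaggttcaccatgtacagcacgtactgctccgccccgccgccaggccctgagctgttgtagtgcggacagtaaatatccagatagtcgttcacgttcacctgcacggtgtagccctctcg
Tcam1 (chr11:106276422-106276671, plus strand): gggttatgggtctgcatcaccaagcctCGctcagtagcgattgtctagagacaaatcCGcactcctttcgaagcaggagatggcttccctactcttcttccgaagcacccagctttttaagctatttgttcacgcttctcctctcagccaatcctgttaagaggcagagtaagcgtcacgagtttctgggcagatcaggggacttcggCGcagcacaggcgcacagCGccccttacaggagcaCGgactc
The Cyba window held fewer CpGs (9 in 300 bp) than the median matched window, which had 19, and more than the median of all RefSeq windows, which had 7. The GC box GGGCGG, searched on both strands (CCGCCC on the other), occurred in the 250 bases before the start in 32.7% of all 32851 RefSeq windows. The Cyba sequence has it starting at bases -24 and -6 from the start, and in both cases the CpG inside it was a chosen site. Of all 6 CpGs in that sequence, 5 were chosen. Gm15998 has it at -91, over no chosen site, and Tcam1 has none. In the other matched windows with a chosen site, Rasgrp2 has it at -90 and -59, over no chosen site, and Gm29773 has none. A match of letters is a description of the sequence only.

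At the 1010 sites the mean level was 56.8% and 55.4% in the 2 primary tumors, 60.5%, 59.9% and 59.5% in MFP metastases 1 to 3, and 25.7%, 18.0% and 20.4% in TVI metastases 1 to 3. The tumors, which the rule did not use, stood near the MFP metastases and far above the TVI metastases. As group means with the SD between samples, tumors had 56.1% ± 0.956 (n = 2), the MFP group had 59.97% ± 0.523 (n = 3) and the TVI group had 21.4% ± 3.93 (n = 3). TVI metastasis 1 was the least low of its group: it had the highest TVI value at 800 of the 1010 sites, against 63 for TVI metastasis 2 and 147 for TVI metastasis 3. Over all 136069 sites the group means were 66.7%, 67.4% and 68.6%, and over the 20100 partly methylated sites outside the rule they were 52.8%, 54.6% and 62.5%. At the other partly methylated sites the TVI mean was thus the highest of the 3 groups. The rule took the chosen sites for low TVI values, so the contrast between the 2 sets is a description.

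**Figure D1:**
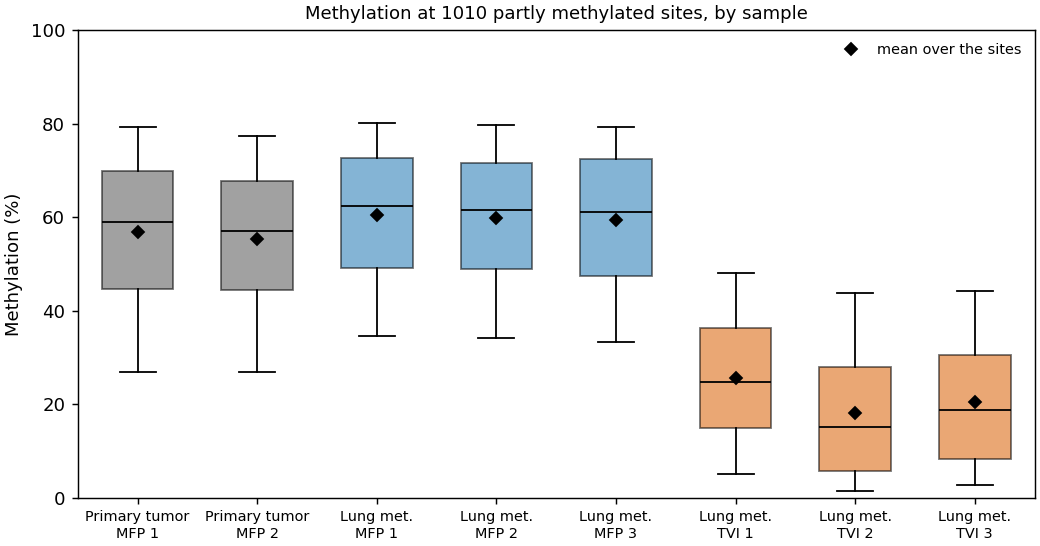
Methylation level (%, y axis) at the 1010 chosen sites in each of the 8 samples (x axis). Boxes span the 25th to the 75th percentile over sites with the median as a line, whiskers the 5th to the 95th percentile, and diamonds the mean, which is 56.8% and 55.4% in the tumors, 59.5% to 60.5% in MFP metastases and 18.0% to 25.7% in TVI metastases.

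The fall from the MFP to the TVI mean had a median of 36.6 points, with the central 50% of sites between 31.5 and 43.1 points and a range from 22.1 to 72.5. Fall and loss here mean this difference between groups, not a change followed over time. At 138 sites the fall was 50 points or more. At 368 sites all 3 TVI metastases were at most 20%, and at 140 all were at most 10%. Relative to the MFP level, the median site lost 66.5%. At 348 sites at least 75% of the level was lost, while 190 sites kept more than they lost. All 1010 were called lower in TVI than in MFP metastases at an adjusted p under 0.05 in limma, where the same call was made at 6.53% of all sites tested, but the rule used this contrast and nothing is read from that count.

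The level in TVI metastases was lower where the level in MFP metastases was lower. Sites with an MFP mean from 20% to under 40% (102 sites) averaged 30.1% in the tumors, 34.7% in the MFP metastases and 5.09% in the TVI metastases, a median loss of 87.0% of the level. From 40% to under 60% (354 sites) the means were 46.9%, 50.2% and 13.9%, with a median loss of 73.4%. From 60% to under 80% (554 sites) they were 66.8%, 70.9% and 29.2%, with a median loss of 57.1%. The required gap of 20 points fixes a part of this order, because a site with low MFP levels can pass only with TVI levels close to zero. Of all sites in these classes, 1.87%, 6.06% and 5.65% were chosen. The chosen sites of the lower class also lay where sites were denser, with a median of 15 other sites within 250 bp against 11 and 9 in the higher classes. The density at the other sites of each class was not taken, so this order may not be particular to the chosen sites.

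The sites nearest the limits of the rule were alike in the limiting quantity only. Just inside the gap, a site on chromosome 11 at 3435338 had 70%, 77.3% and 73.5% in MFP metastases and 44.7%, 50% and 34.4% in TVI metastases, a gap of 20 points. Just outside it, a site on chromosome 16 at 35279322 had 65.9%, 45.8% and 57.8% against 25.8%, 15.7% and 15%, a gap of 19.99 points. For the limit on the mean, the site on chromosome 1 at 59540636 was inside with an MFP mean of 79.9988%, and the site on chromosome 8 at 121814097 was outside with 80.0087%. The 976 sites with an MFP mean of 80% or more and the same gap averaged 88.4% in the tumors, 90.7% in the MFP metastases and 48.98% in the TVI metastases, so they lost a like number of points from a higher level.

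New sets of sites were also chosen with the same rule from 2 MFP and 2 TVI metastases, and the left-out pair was compared. There are 9 such choices, each giving 1164 to 1605 sites. In every choice 99.1% to 100% of the sites were lower in the left-out TVI than in the left-out MFP metastasis, by a median of 26.7 to 39.0 points, against 42.3% to 45.1% of all sites. A difference of at least 20 points was met by 90.4% to 94.7% of the sites when TVI metastasis 2 or 3 was left out. When TVI metastasis 1, the sample with the highest levels in its group, was left out, only 73.8% to 75.7% met it. These sets are not the chosen sites described above. The left-out samples belong to the same groups and may share an animal with the samples used. Their comparison was with all sites of any level, not with partly methylated sites alone. The shares are therefore a description, and whether the difference holds in separate animals was not tested.

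Both primary tumors lay above the highest TVI metastasis at 1005 of the 1010 sites, and at least 20 points above it at 709. The same order, all TVI metastases below both tumors, was found at 12.7% of all sites and at 16.8% of the partly methylated sites outside the rule. The rule used the TVI values, so the share at the chosen sites is a description. It did not use the tumors, but at the median of all sites the MFP mean was only 0.389 points above the tumor mean. Tumors above the TVI metastases were therefore favored by the rule. Against the MFP metastases, both tumors were inside the range of the 3 samples at 202 sites, both below the lowest at 290 and both above the highest at 47. At the median site the MFP mean was 3.29 points above the tumor mean, where the 2 tumors differed from each other by a median of 5.62 points. The median for partly methylated sites outside the rule was 1.55 points. The TVI mean was 33.9 points below the tumor mean at the median chosen site, and 10.3 points above it at the median site outside the rule.

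**Figure D2:**
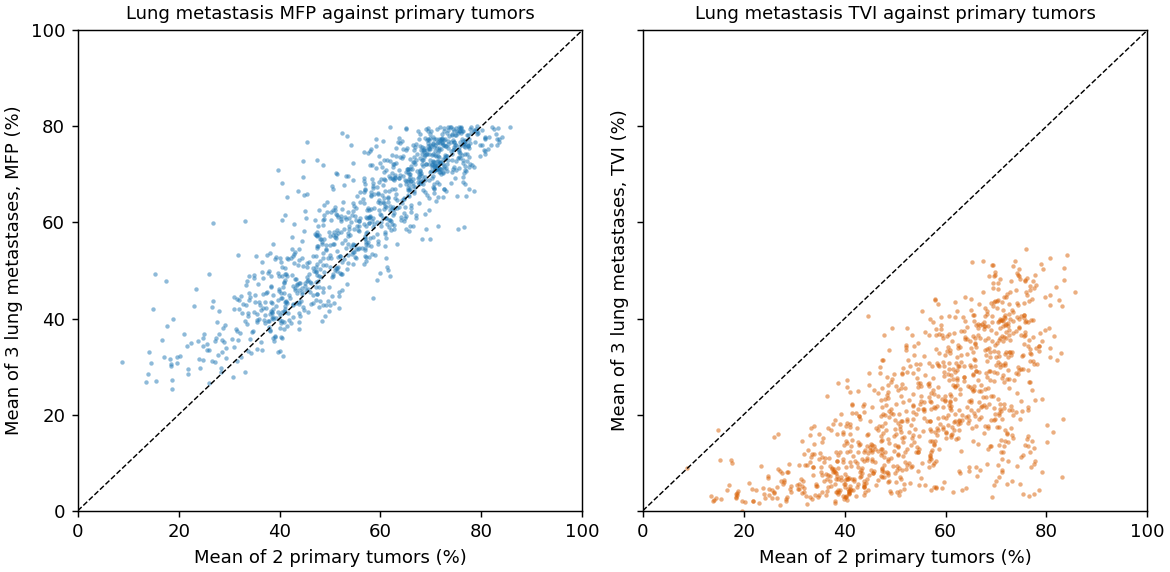
Each point is 1 of the 1010 chosen sites. The x axis is the mean level of the 2 primary tumors (%) and the y axis the mean of the 3 MFP metastases (left) or the 3 TVI metastases (right), with equality as a dashed line. MFP points follow the line, with a median 3.29 points above it and an upper edge at the 80% limit of the rule, while nearly all TVI points lie below it, by a median of 33.9 points.

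In the limma fit over all sites, 987 of the 1010 were called lower in TVI metastases than in tumors and 0 were called higher, where 5.24% of all sites were called lower and 11.4% higher. An unadjusted p under 0.05 was found at 1003 of the chosen sites and at 34534 of all 135914. After quantile normalization, which moved the balance of all calls from 15428 higher and 7124 lower to 10073 higher and 9688 lower, 1003 of the chosen sites were called lower. The comparison shares the TVI samples with the rule and its calls are not independent of it. The 23 chosen sites without a call had a median tumor mean of 41.1%, a median MFP mean of 61.6% and a median TVI mean of 27.2%, and at 20 of them both tumors were below every MFP metastasis.

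MFP metastases against tumors gave 10 calls among the 1010, all higher in the metastases, where 0.0427% of all sites were called higher and 0.00368% lower. An unadjusted p under 0.05 was found at 177 of the 1010, and at 11766 of all 135914 sites. The rule asks for high MFP values, which favors sites with the MFP metastases above the tumors, so these counts are a description too. At these 10 sites the tumor means were low, from 8.79% to 26.8% against 56.1% over all 1010 sites. The MFP means were 26.9% to 59.9% and the TVI means at most 16.8%. The site on chromosome 11 at 78896867 had 16.5% and 14.3% for tumors, 52.4%, 53.6% and 41.8% for MFP metastases and 14.2%, 8.33% and 9.01% for TVI metastases, and the MFP mean was 33.9 points above the tumor mean (SE 3.62, adjusted p 0.0255 in limma). On chromosome 5 at 145881796 the levels were 29.5% and 24.1%, then 58.3%, 58.0% and 63.4%, then 21.9%, 10.5% and 15.6%. On chromosome 3 at 97902933 they were 16.3% and 13.7%, then 38.9%, 45.2% and 41.9%, then 17.6%, 15.1% and 17.7%, and the site on chromosome 2 at 173072539, with the lowest tumor mean of all chosen sites, had 5.75% and 11.8%, then 31.1%, 30.3% and 31.4%, then 9.41%, 6.93% and 10.1%. At these 4 sites the TVI metastases differed from the tumors by no more than 10.8 points without a call, and the MFP metastases were above all other samples. The other 6 were neighbors on chromosome 10 at 79580083 and 79580085, neighbors on chromosome 3 at 145315275 and 145315277, and single sites on chromosome 7 at 52962675 and chromosome 2 at 151368839. There the MFP metastases were 13.4 to 20.9 points above the tumors and the TVI metastases 10.5 to 14.8 points below them, with adjusted p from 0.0287 to 0.044 in limma. All 10 calls were lost under some other setting of the fit, and leaving out 1 sample left between 0 and 5 calls.

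At the opposite end, 3 chosen sites had the highest tumor means. The site on chromosome 16 at 35279335 had 84.7% and 86.7% in tumors, 77.2%, 83.6% and 78.8% in the MFP group and 47.4%, 42.0% and 47.2% in TVI metastases. On chromosome 5 at 136483755 and chromosome 8 at 127141420 the tumor means were 84.0% and 83.5%. The TVI means of the 3 sites were between 45.5% and 53.1%. Beside the sites on chromosome 2 named above, the third of the lowest tumor means was on chromosome 19 at 55389903, with 16.9% and 10.98% in tumors, 29.8%, 23.9% and 31.5% in MFP metastases and 3.33%, 0% and 2.47% in TVI metastases.

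The chosen sites were clustered. Another chosen site lay within 100 bp of 59.7% of them, and the 1010 sites formed 645 runs in which no other site intervened, of which 478 were a lone site and 65 had at least 3 sites. The longest run had 31 sites in 307 bp. Sites at most 500 bp apart were joined into 3083 regions. Of these, 354 held chosen sites: 187 held exactly 1, while the 48 with at least 5 held 507 (50.2%). Chromosome 8 carried 198 (19.6% of the chosen sites against 12.1% of all sites), and chromosome 11 had 140 (13.9% against 17.8%). Chromosome 13 had the largest share of its own sites chosen, 2.73% (13 of 477), and chromosome X had none among its 71 sites. Regional means with chosen sites went both ways: 156 of the 354 were called lower in TVI metastases than in tumors and 78 higher in limma, where 9.67% of all regions were called lower and 49.6% higher. After quantile normalization the counts were 247 lower and 42 higher, where 663 of all 3083 were called lower and 861 higher. Between MFP metastases and tumors 18 of the 354 were called higher (4.93% of all regions) and 0 lower (0.324% of all regions), with 87 of the 354 and 702 of all 3083 at an unadjusted p under 0.05.

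The surroundings of the chosen sites are given beside those of other sites, with no test of the difference. The median number of other sites within 250 bp was 10, against 7 at the partly methylated sites outside the rule, 11 at the highly methylated losing sites and 8 at all sites. A site at or below 10% in tumors lay within 500 bp of 60.7% of the chosen sites, against 52.6% outside the rule, 36.9% of the highly methylated losing sites and 40.8% of all sites. Of the chosen sites 45.3% had both such an unmethylated site and a site at or above 80% within 500 bp, close to the 43.6% of partly methylated sites outside the rule, against 35.0% of the highly methylated losing sites and 23.9% of all sites. Many neighbors fell too. The 1966 other sites within 100 bp of a chosen site fell by a median of 14.0 points from MFP to TVI metastases, and at 1274 of them (64.8%) all TVI metastases were below all MFP metastases, against 9.46% of sites further away. At 135 the order was the opposite. Neighboring sites share DNA molecules, so these neighbors are not an independent measure.

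**Figure D3:**
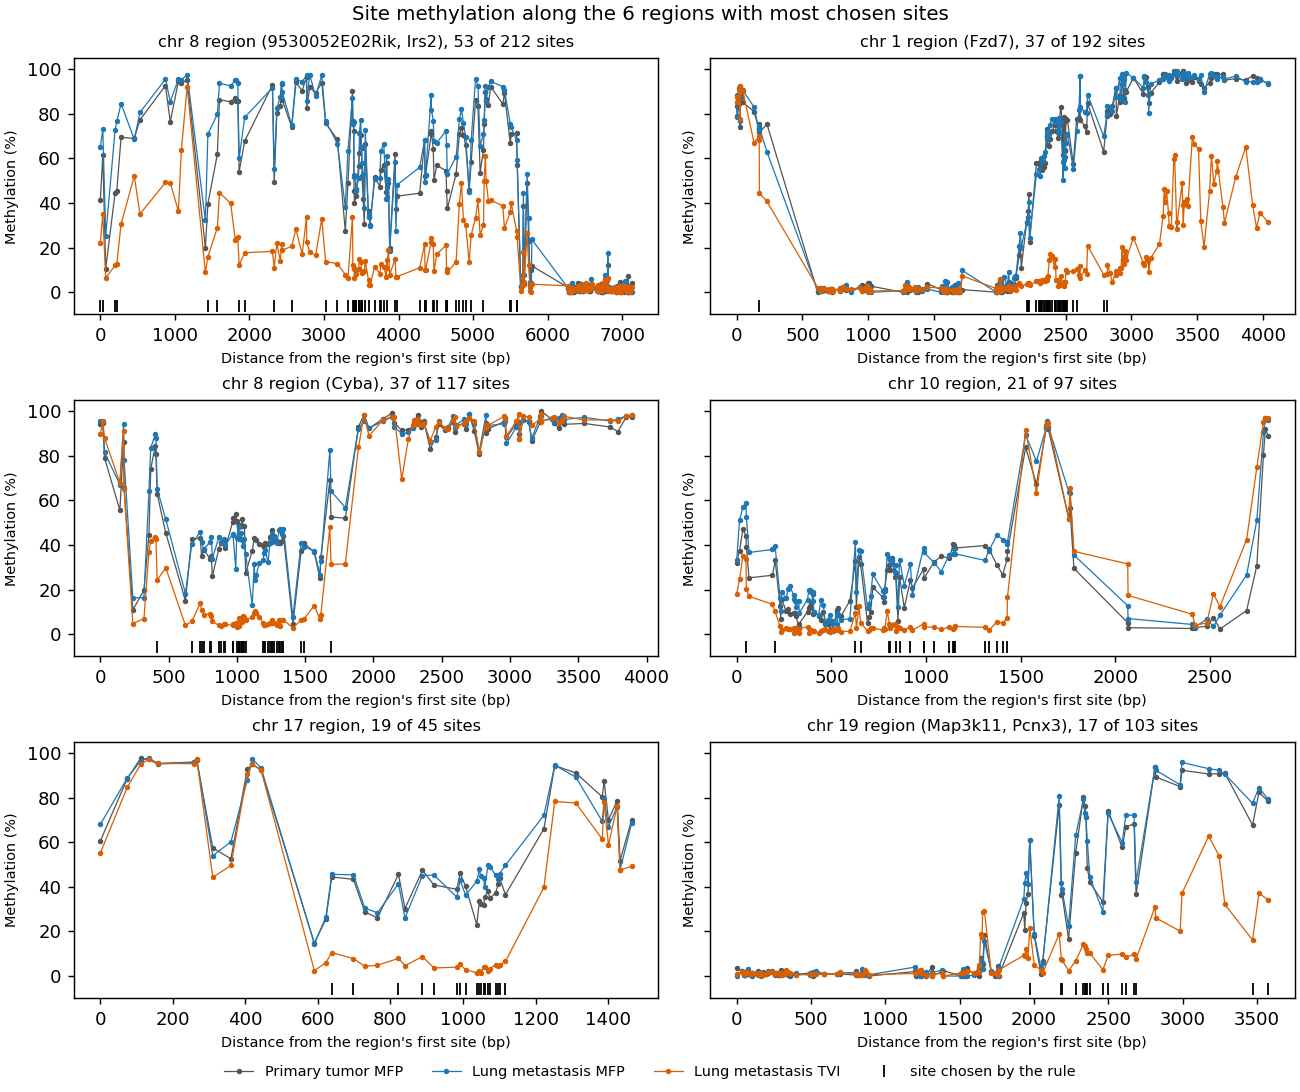
Group mean methylation (%, y axis) of every site along the 6 regions with the most chosen sites, by distance from the region's first site (bp, x axis). Lines join neighboring sites, and black ticks mark the chosen sites, which number 53, 37, 37, 21, 19 and 17. Over the ticks the TVI line lies below the tumor and MFP lines, and in the first region the tumor line lies below the MFP line in places (40.7% against 62.6% over the first 250 bp).

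The 12 regions with the most chosen sites held 257 of the 1010 (25.4%). The most were on chromosome 8 from 11001191 to 11008319, where 53 of 212 sites were chosen. They lay 2147 to 7739 bp downstream of the start matched to Irs2, which encodes an adaptor of the insulin and IGF receptors, and upstream of the start matched to the noncoding gene 9530052E02Rik. Their mean was 56.6% and 57.2% in the tumors, 65.4%, 64.7% and 63.6% in the MFP metastases and 23.9%, 10.2% and 15.4% in the TVI metastases. Tumors were below the MFP metastases and all were far above the TVI metastases. A further 35 sites of the region were highly methylated and fell by the same gap. Both starts were unmethylated in every sample: the Irs2 window averaged 1.38%, 1.11% and 1.16% in the groups in the same order.

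At the region on chromosome 1 from 59537821 to 59541859, 37 of 192 sites were chosen and 62 more were highly methylated losing sites. It contains the start matched to Fzd7, a receptor for Wnt ligands, although that match rests on 7 sites of a window with 24 CpGs. The chosen sites averaged 66.7% and 65.7% in the tumors, 59.95%, 65.9% and 67.3% in the MFP metastases and 11.6%, 5.202% and 6.94% in the TVI metastases. The 6 chosen sites with the largest gap between the lowest MFP and the highest TVI value were all here. At 59540272 the levels were 76.6% and 73.1% for tumors, 75%, 75% and 84.6% for MFP metastases and 5.97%, 2.04% and 8.97% for TVI metastases. The Fzd7 window itself averaged 2.74%, 1.47% and 1.28% in the groups, with no chosen site. From the start the level was low in all samples, and the 31-site run from 59540099 to 59540405 marked where it rose in tumors and MFP metastases. In the 250 bp step that held 27 of these sites, the mean was 67.9% in tumors, 66.2% in the MFP group and 6.74% in TVI metastases. Neighboring sites at or below 20% formed a stretch of 76 to 79 sites (1507 to 1549 bp) in tumors and MFP metastases and of 94, 136 and 130 sites (1751, 2346 and 2308 bp) in TVI metastases 1 to 3, so the low stretch reached further from the start in each of them.

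At Cyba the chosen sites lay across the start itself. On chromosome 8 from 124955528 to 124959419, 37 of 117 sites were chosen, from 376 bp before to 897 bp after the start at 124956841. They averaged 41.8% and 44.4% in the tumors, 41.8%, 44.7% and 42.7% in the MFP metastases and 10.9%, 4.15% and 6.34% in the TVI metastases. Tumors and MFP metastases overlapped, and no TVI metastasis came near them. At the CpG 2 bases before the start the levels were 41.9% and 39.7% in the tumors, 35.9%, 58.1% and 47.9% in the MFP metastases and 7.95%, 0% and 3.09% in the TVI metastases. The CpGs inside the GC boxes shown above, 20 bases and 2 bases before the start, were both of this kind, and at the former TVI levels were 12.8%, 2.63% and 4.08% against 36.1% to 50% in the other samples. The window's remaining CpG, 97 bases before the start, was at most 8.403% in every sample. Sites at or below 20% formed a stretch of 44, 47 and 47 sites (875, 993 and 993 bp) over the start in TVI metastases, and of at most 2 sites in the tumors and MFP metastases. Further upstream, where all groups were above 80%, the TVI means did not stand apart: in the step from 2250 to 2499 bp of the region they were 92.8%, 92.5% and 93.2%.

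**Figure D4:**
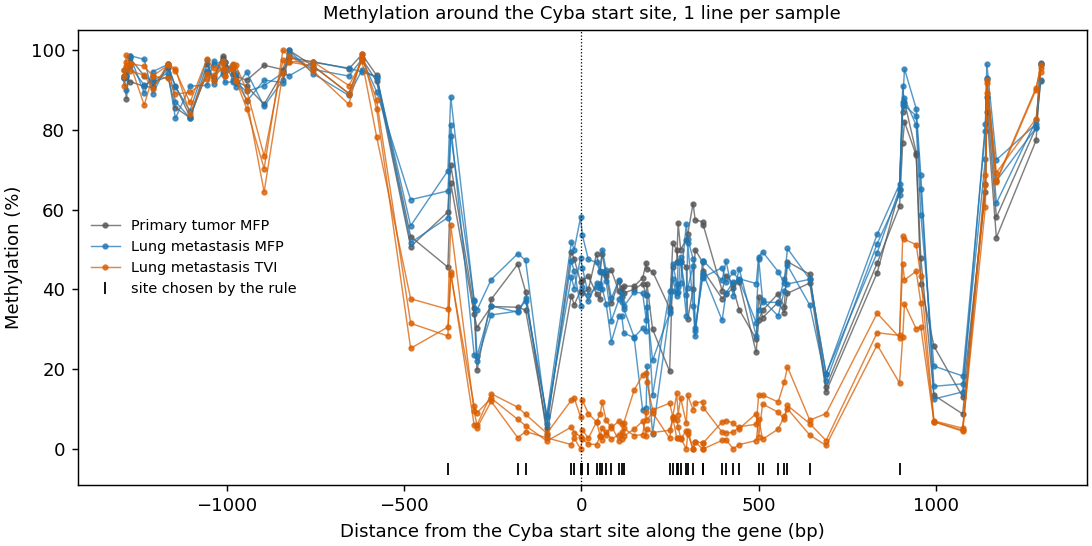
Methylation (%, y axis) of each site by distance from the Cyba start along the gene (bp, x axis; negative values are before the start), with 1 line per sample and black ticks at the chosen sites. Over the start the 2 tumors and 3 MFP metastases run near 40%, and the 3 TVI metastases run near the bottom of the axis, while all samples meet above 80% further upstream.

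In the other promoter windows with runs of chosen sites, the fall was smaller. The Gm15998 window averaged 47.6% and 49.0% for tumors, 47.2%, 48.0% and 51.8% for MFP metastases and 35.6%, 29.4% and 29.6% for TVI metastases. At its chosen CpG 142 bases before the start, levels were 71.4% and 81.3%, then 62.7%, 59.5% and 83.1%, then 25.7%, 13.4% and 24.1%. The Tcam1 window averaged 58.7% and 60.8% in tumors, 63.1%, 61.4% and 58.3% in the MFP group and 40.6%, 36.7% and 36.9% in TVI metastases. Neither window was unmethylated in the TVI metastases, and the mean of each was lower there than in all other samples. Single sites of the Gm15998 window that were not chosen had the opposite order: the site 90 bases before the start averaged 41.5% in tumors, 40.96% in the MFP group and 62.3% in the TVI group, and those 34 and 28 bases before it 5.86%, 7.34% and 25.04%, and 10.8%, 9.27% and 27.9%. Promoters of this kind were few: of the 272 matched windows, 211 had a tumor mean of at most 10%, 12 were at least 10 points lower in TVI than in MFP metastases, and 7 were at least 10 points higher.

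The chromosome 10 region from 76628067 to 76630873 held 21 chosen sites of 97 and no matched start. They averaged 35.2% and 29.8% in the tumors, 41.4%, 37.7% and 33.0% in the MFP metastases and 6.96%, 3.41% and 4.65% in the TVI metastases. Between the 1500 and 1749 bp marks all groups were high, at 85.6%, 89.6% and 87.6%, and the 3 sites from 2250 bp were low in all, at 2.98%, 4.71% and 5.96%. Beyond the chosen sites the order turned: the 4 sites between 2500 and 2749 bp averaged 12.7% in the tumors, 22.4% in the MFP metastases and 36.9% in the TVI metastases. Over all 97 sites the MFP metastases were 4.69 points above the tumors (SE 1.05, adjusted p 0.0478 in limma), a call that was lost in 11 of 14 other settings.

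On chromosome 17 from 46689226 to 46690691, 19 of 45 sites were chosen, a larger share (42.2%) than in any other of the 12 regions. They lay 2769 to 3248 bp downstream of the start matched to Srf, a transcription factor of serum and cytoskeletal response genes, a match of 8 sites in a window of 25 CpGs. Their mean was 32.5% and 44.9% for tumors, 52.5%, 38.5% and 41.5% for MFP metastases and 7.46%, 3.68% and 3.10% for TVI metastases. The first group and the second overlapped and each varied by more than 10 points, but none approached the TVI metastases. In all 3 TVI metastases the same count of 24 neighboring sites, over 528 bp, was at or below 20%, against at most 3 such neighbors in any tumor or MFP metastasis. The Srf window was at 1.02%, 0.947% and 1.36% in the groups.

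On chromosome 19 from 5688687 to 5692262, the 17 chosen sites of 103 lay 1527 to 3130 bp downstream of the start matched to Map3k11, a kinase upstream of JNK, beside the start of Pcnx3 on the opposite strand. Tumors had 62.5% and 54.1%, MFP metastases 59.7%, 60.9% and 62.5%, and TVI metastases 17.0%, 9.41% and 9.26%. As at Fzd7, the start was unmethylated in all groups (0.993%, 1.39% and 1.27% for the Map3k11 window), and the chosen sites sat where the level rose. In the step from 2250 to 2499 bp, where all 8 sites were chosen, the means were 60.1%, 61.6% and 9.92%.

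In the remaining 6 regions the chosen sites were again lowest in the TVI metastases, which the rule requires against the MFP metastases. On chromosome 8 from 120858571 (14 sites) tumors had 60.8% and 61.2%, MFP metastases 65.3% to 67.5% and TVI metastases 25.9% to 33.6%. On chromosome 11 from 8551505 (13 sites) the values were 60.7% and 57.3%, 55.9% to 62.4% and 13.7% to 25.9%. On chromosome 2 from 167362614 (12 sites) they were 60.2% and 54.3%, 63.8% to 65.8% and 10.7% to 17.6%. On chromosome 9 from 63513070 (12 sites) they were 46.4% and 39.1%, 44.9% to 50.7% and 8.41% to 13.9%. On chromosome 8 from 11392956 (11 sites) they were 71.1% and 60.1%, 63.3% to 68.8% and 21.3% to 32.7%. The last, on chromosome 17 from 26338859 (11 sites), had tumors at 22.0% and 21.1%, below all 3 MFP metastases at 29.6% to 34.4%, and TVI metastases at 2.46% to 5.29%. Over all their sites, chosen or not, the 12 regions were 3.42 to 32.4 points lower in TVI metastases than in tumors.

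**Figure D5:**
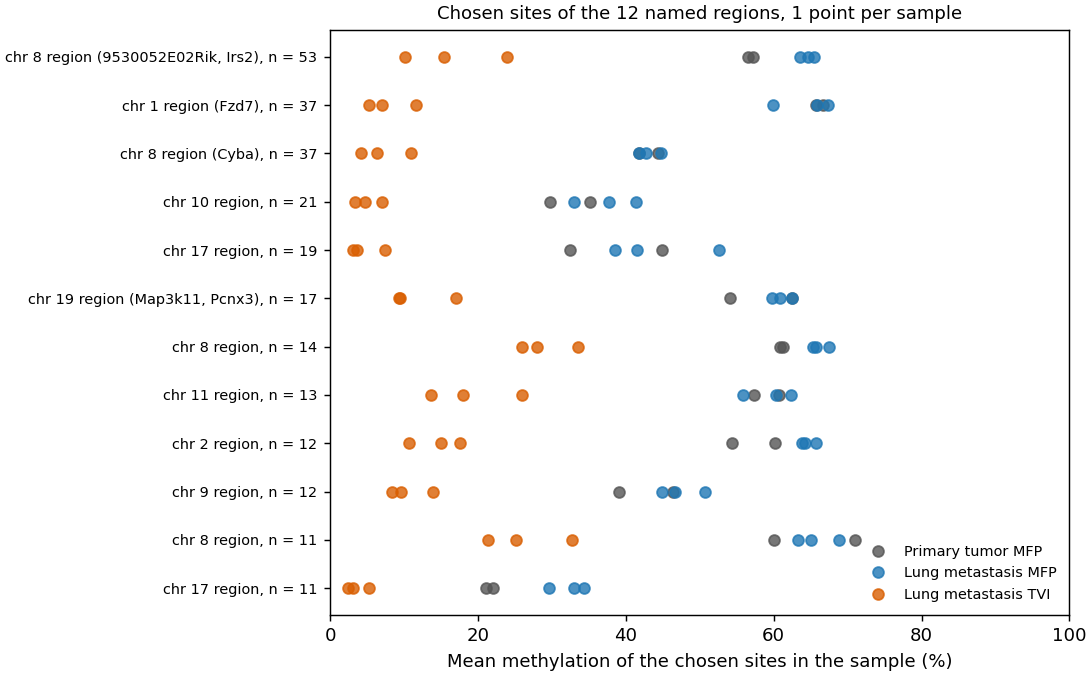
Mean methylation (%, x axis) of the chosen sites of each of the 12 regions (y axis, with the number of chosen sites), with 1 point per sample. In every region the 3 TVI points lie to the left of the 5 others, from 2.46% to 33.6%, while tumors and MFP metastases overlap in most. The rule fixed the order of TVI against MFP points.

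A start matched by CpG spacing lay within 5000 bp of 337 chosen sites (33.4%), against 13.97% of the partly methylated sites outside the rule, 34.3% of the highly methylated losing sites and 16.5% of all sites. Within 1000 bp the shares were 13.9%, 5.85%, 11.99% and 8.45% in the same order, so the sites that fell from a higher level lay about as often near a matched start. The matched starts nearest to these chosen sites were those of 83 genes. The 5 genes with the most, 9530052E02Rik, Cyba, Fzd7, Srf and Map3k11, accounted for 157 of the 337 and so for much of this share. Each site was counted at its nearest matched start only. Most RefSeq windows were not matched, so the start of another gene may be nearer. The genes named from here on, other than those on lists, were picked after their values were seen. The sites of a gene are given as a mean, because those close together share molecules.

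Among receptors and ligands, Flt1, a receptor for vascular endothelial growth factor, had 6 chosen sites, at -439 to -366 bp from its start. They averaged 57.1% and 60.5% in tumors, 55.4%, 50.3% and 49.8% in the MFP group and 20.2%, 17.4% and 19.97% in TVI metastases, and here the tumors were the highest. Ephb4, an ephrin receptor, had 2, with 44.8% and 47.4% in the tumors, 57.3%, 62.5% and 60.1% in the MFP metastases and 23.1%, 10.4% and 16.2% in the TVI metastases. Pdgfa, a growth factor for mesenchymal cells, had 4, at -3686, -3251, 2035 and 2041 bp from its start and so not all close together. Their means were 69.5% and 66.3%, 76.2%, 73.9% and 75.3%, and 47.4%, 40.7% and 42.6%. The 2 genes of the Wnt list that could be placed, out of 27, were Fzd7 and Fzd1, both Wnt receptors. Fzd1 had 1 chosen site, 2012 bp after its start, at 64.8% and 58.8% in the tumors, 66.7%, 68.3% and 72.7% in the MFP metastases and 44.1%, 42.3% and 43.9% in the TVI metastases. The 33 sites within 1000 bp of the Fzd1 start, none of them chosen, went the other way, at 35.9% and 34.5%, 35.0%, 37.4% and 36.7%, and 54.8%, 57.7% and 54.1%.

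Of the inflammation list, 3 of 8 genes could be placed, and 2 of them had chosen sites, all beyond an unmethylated start. Nfkbia encodes an inhibitor of NF-kappaB and had 6, from 1472 to 2217 bp after its start, at 60.8% and 64.8% for tumors, 67.4%, 63.6% and 63.6% for MFP metastases and 26.2%, 9.71% and 17.1% for TVI metastases. Within 1000 bp of the Nfkbia start the means were between 10.7% and 11.4% in tumors and MFP metastases and 13.4% in each TVI metastasis. Socs1, a suppressor of cytokine signaling, had 2, at 71.8% and 71.4%, 61.7%, 67.9% and 83.7%, and 26.5%, 10.5% and 18.1%. Rela, a subunit of NF-kappaB, had none.

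Among other genes, Ddit4, an inhibitor of mTOR signaling, had 7 chosen sites from 1074 to 1360 bp after its start. They averaged 44.8% and 46.2% in tumors, 49.3%, 56.8% and 50.3% in the MFP group and 17.0%, 10.1% and 12.3% in TVI metastases. Fkbp1a, which encodes the binding protein of rapamycin, had 6, at 41.8% and 38.4%, 48.6%, 47.7% and 45.7%, and 9.99%, 3.48% and 4.91%. Dusp1, a phosphatase of MAP kinases, had 3, at 63.9% and 65.2%, 65.6%, 64.8% and 67.9%, and 37.0%, 27.6% and 28.2%. At each of these genes the 3 TVI metastases were below the 5 other samples. The rule fixed this order against the MFP metastases and favored it against the tumors. Mmp15, a membrane metalloproteinase, had 4, at 74.5% and 74.1% in the tumors, 68.8%, 69.0% and 71.2% in the MFP metastases and 33.6%, 19.7% and 28.4% in the TVI metastases. Rasgrp2, an activator of Rap proteins, had 3, from 102 bp before to 308 bp after its start, at 67.0% and 68.3%, 71.5%, 69.8% and 71.5%, and 36.9%, 27.8% and 24.8%. In all 5 of these genes and at Cyba, Fzd7 and Nfkbia, TVI metastasis 1 was the highest of its group.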

How the data were processed

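DNA methylation was measured by bisulfite sequencing. The values that the authors deposited are beta values, per the file headers: at each site the fraction of methylated calls (0 to 1), in a table with 1 column for each of the 8 samples; they are given here as percentages. Tools named in the submitters' processing notes are Trimmomatic and Bismark, and the build is mm10, all without a version. How sites were selected, and any filter on coverage, were not given in the sources used here. No counts are in the table, so the depth is unknown and no interval that needs it is given.

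Groups and replicate numbers came from the sample titles. Fractions were fitted per site (135914 sites with any variation) and per region (mean of at least 3 sites joined at up to 500 bp) with limma 3.58.1 in R 4.3.3. The fit had 1 mean per group over all 8 samples and a variance trend. Tests were two-sided, with Benjamini-Hochberg adjustment over all sites or regions and a threshold of 0.05. The p-values rest on the spread between samples that may share an animal.

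The chosen sites and lists were taken with earlier results of these data known. Sites exactly at a limit of the rule (3) were kept inside. Named items are the 12 regions with most chosen sites, the 6 sites with the largest gap, the 3 highest and 3 lowest in tumors, the 3 on either side of each limit, and up to 10 called between MFP metastases and tumors; examples of these are printed in full. Gene names were to be given only with an annotation of the same build; they rest instead on the match of CpG spacing, added after the values were seen. A match needed at least 7 sites, all on CpGs of the window (1 off the pattern allowed from 15), and at least 25% of the window's CpGs. Alternatives changed the scale, normalization, filter, samples, pairing, variance, joining distance and limits of the rule.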

Additional observations from a re-analysis of the deposited data

How the results depend on the processing

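The 12 named regions were called lower in TVI metastases than in tumors in every alternative that formed them and kept both tumors. With both tumors kept, the count of chosen sites called lower in this comparison went from 949 to 1003. The regions and the sites were picked for low TVI values, so these calls are not independent of the rule. The count of chosen sites depends on the limits: gaps of 15, 25 and 30 points gave 1552, 614 and 360 sites in place of 1010, and at 30 points the tumor mean was 61.9%. Quantile normalization kept 988 of the 1010. The 10 chosen sites called higher in MFP metastases than in tumors became 0 on the log2 ratio scale, 6 after quantile normalization, 20 with only sites of mean 5% to 95%, 0 with only the 2 groups compared and 0 with a replicate block, and 0 to 5 without 1 sample. Over all sites the 63 calls of this comparison became 0, 28, 220, 0 and 0 in the same order, 117 with a robust variance, and 0 to 18 without 1 sample. In the 8 limma alternatives with 0 calls, 114 to 180 chosen sites and 10382 to 11802 of all sites had an unadjusted p under 0.05. Its 162 region calls became 72 after quantile normalization, 87 with only the 2 groups and 65 with the block, and were 56 to 171 without 1 sample. Leaving out a tumor leaves 1, assumed to vary like the other groups. With sites joined at 250 and 1000 bp, region calls were 3370 and 1040 in place of 1828 for TVI metastases against tumors, and 3188 and 995 in place of 1718 for TVI against MFP metastases; the number of regions formed changes with that distance. Deviations of same-numbered samples had correlations from -0.0053 to 0.0213, and those of differently numbered samples from -0.0213 to 0.00818. With 2 or 3 samples per group these values cannot tell whether the numbers pair the samples. Without coverage, sites measured on few reads cannot be told from others.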
